A study of Mus musculus with 12 samples.

Results

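Germ cells were taken from single-cell RNA sequencing of wild-type (WT) mouse gonads, and were chosen by their own transcripts. A cell was counted as a germ cell when it had at least 1000 detected genes, at most 10% mitochondrial UMIs and at least 20 UMIs in sum of Dppa5a, Pou5f1, Ddx4, Dazl and Dppa3. By this rule 4143 of the 29974 WT cells that passed the same filters on genes and mitochondrial UMIs were germ cells, and 25831 were other cells. A UMI is a molecular tag that lets PCR copies of 1 captured RNA molecule be counted once. Gonads of both sexes were collected at E12 (23 ± 3 tail somites) and dissociated with trypsin-EDTA, and both sexes were of the same mixed B6CBAF1/JRj background. WT carried no Wt1 mutation. There were 2 WT libraries of XX and 2 of XY gonads, described as independent replicates. Another 8 libraries came from gonads unable to make the -KTS or the +KTS splice variant of Wt1 (-KTS KO and +KTS KO, both sexes, 2 libraries each). These entered the tests through the shared estimate of the spread between libraries, the filter on low counts and the scaling. In fits of germ cells they did so through the 3901 of their cells that met the same rule. In fits that included other cells, their remaining cells past the filters entered as well. The series held 83513 cells past the filters.

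Germ cells of the mouse arise outside the gonad and migrate into it. They reach it with an active pluripotency network, carried by the transcription factors Pou5f1, Nanog and Sox2 and by proteins such as Dppa3 and Dppa4, and with much of their DNA methylation erased. In the gonad they switch on germline genes such as Ddx4, an RNA helicase, and Dazl, an RNA-binding protein. Later XX germ cells enter meiosis, for which Stra8 is a key gene, and XY germ cells stop dividing and turn on male genes such as Nanos2. Nodal signalling, with its feedback inhibitors Lefty1 and Lefty2, is known from XY germ cells, and BMP and retinoic acid signals act on XX germ cells.

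The promoters of 3 germline genes that were higher in germ cells, and of 2 neighbouring genes that differed between the sexes of germ cells, are printed here. Each is 300 bases of RefSeq's GRCm38.p6 sequence, from 250 bases before to 50 after the start of the transcript, written 5′ to 3′ on the strand of the gene. Capitals mark CG pairs, the sites of DNA methylation. The positions are chr13:112652261-112652560 (minus strand) for Ddx4, chr17:50293571-50293870 (minus) for Dazl, chr1:166238695-166238994 (minus) for Mael, chr7:143502475-143502774 (minus) for Phlda2 and chr7:143473539-143473838 (plus) for Slc22a18.
Ddx4: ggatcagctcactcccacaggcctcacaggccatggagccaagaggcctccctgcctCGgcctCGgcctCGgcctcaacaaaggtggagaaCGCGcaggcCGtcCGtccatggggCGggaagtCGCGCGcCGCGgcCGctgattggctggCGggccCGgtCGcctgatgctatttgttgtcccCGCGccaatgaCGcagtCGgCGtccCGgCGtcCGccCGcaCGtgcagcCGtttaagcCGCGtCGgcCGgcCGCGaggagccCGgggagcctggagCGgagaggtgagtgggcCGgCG
Dazl: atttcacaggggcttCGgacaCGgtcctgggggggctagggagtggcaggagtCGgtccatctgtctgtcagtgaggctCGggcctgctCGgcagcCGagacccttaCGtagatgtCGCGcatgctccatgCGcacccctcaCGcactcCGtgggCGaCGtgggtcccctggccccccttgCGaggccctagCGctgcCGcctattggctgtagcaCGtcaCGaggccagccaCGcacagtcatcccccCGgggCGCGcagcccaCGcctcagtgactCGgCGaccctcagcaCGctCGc
Mael: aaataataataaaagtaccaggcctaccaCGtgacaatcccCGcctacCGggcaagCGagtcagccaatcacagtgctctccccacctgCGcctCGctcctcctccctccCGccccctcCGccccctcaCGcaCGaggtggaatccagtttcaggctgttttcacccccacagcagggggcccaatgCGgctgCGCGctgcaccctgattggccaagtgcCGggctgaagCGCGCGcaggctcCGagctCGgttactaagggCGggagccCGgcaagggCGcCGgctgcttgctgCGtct
Phlda2: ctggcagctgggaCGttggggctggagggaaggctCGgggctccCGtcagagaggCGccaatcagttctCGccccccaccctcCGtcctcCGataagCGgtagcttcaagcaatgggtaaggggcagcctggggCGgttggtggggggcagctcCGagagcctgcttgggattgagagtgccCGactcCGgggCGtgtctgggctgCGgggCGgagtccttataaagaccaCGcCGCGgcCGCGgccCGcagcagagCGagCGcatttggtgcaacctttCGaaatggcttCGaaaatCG
Slc22a18: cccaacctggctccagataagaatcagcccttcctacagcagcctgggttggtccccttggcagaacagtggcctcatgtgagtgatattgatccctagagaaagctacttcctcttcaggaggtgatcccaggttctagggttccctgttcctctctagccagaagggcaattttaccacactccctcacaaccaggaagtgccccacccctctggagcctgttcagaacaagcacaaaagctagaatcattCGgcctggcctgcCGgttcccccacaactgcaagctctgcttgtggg

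The Ddx4 window held 38 CG pairs, a number reached by 4.95% of all 32851 promoter windows in the table. The Dazl window held 28 (reached by 14.2%), Mael 24 (20%), Phlda2 26 (16.9%) and Slc22a18 only 2 (85.9%). Over the list of germline genes of gonadal germ cells, 24 of 27 genes matched the table by symbol, with 30 promoter windows and a median of 21 CG pairs, against a median of 7 over all windows. The motif CACGTG, an E-box that reads the same on both strands, was in 15 of these 30 windows (50%) and in 7.15% of all windows. GCGGGA, an E2F-type sequence searched on both strands, was in 14 of the 30 (46.7%) and in 20% of all windows. The 2 motifs can share 1 letter where they adjoin, and 7 germline windows held both, Ddx4 and Mael among them. The piRNA pathway list matched 16 of 19 genes with 24 windows, of which 41.7% held CACGTG and 12.5% held GCGGGA. The pluripotency list matched 14 of 23 genes with 17 windows, a median of 11 CG pairs and 11.8% of the windows with each motif. Each motif itself holds a CG pair, and the shares were not adjusted for the number of CG pairs in a window. Some genes had more than 1 window, and each window was counted. Such matches describe letters in a window, and neither binding nor methylation was measured.

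The germ cells numbered 1002 and 535 in the XX libraries and 1298 and 1308 in the XY libraries. They made up 14.1% (95% Wilson interval 13.3 to 15) and 7.40% (6.82 to 8.03) of the cells in XX replicates 1 and 2, and 14.4% (13.7 to 15.1) and 19.7% (18.8 to 20.7) in XY replicates 1 and 2. Intervals cover counting error only. The mean share was 10.8% ± 4.76 (SD, n = 2) in XX and 17.1% ± 3.80 (SD, n = 2) in XY, and the 2 XX libraries differed from each other by more than XX replicate 1 did from XY replicate 1. The exact two-sided permutation test gave p = 0.333, the smallest p that 2 libraries against 2 allow. With likely doublets removed the difference, XX minus XY, moved from -6.29 to -4.13 percentage points (exact permutation p = 0.667).

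Germ cells were the deeper cells of each library. Their median was 30761 and 36017 UMIs per cell in XX and 23795 and 28704 in XY, against 10342 to 14312 in the other cells, which is 2.25 to 2.56 times as many within the same library. They took 15.9 to 35.2% of all UMIs of the kept cells, and their sums per library ran from 20838532 to 42420036 UMIs. Only 1 cell barcode was shared between germ cells of different WT libraries. The marker sum that chose the cells separated them widely from the rest, with a median of 180 and 197 UMIs in XX and 184 and 202.5 in XY, while 68.0 to 87.0% of the other cells had 0. Near the threshold lay few cells. There were 71 cells just inside (20 to 29 UMIs) and 77 just outside (10 to 19), and those just inside had medians of only 3830 to 5940 UMIs.

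**Figure D1:**
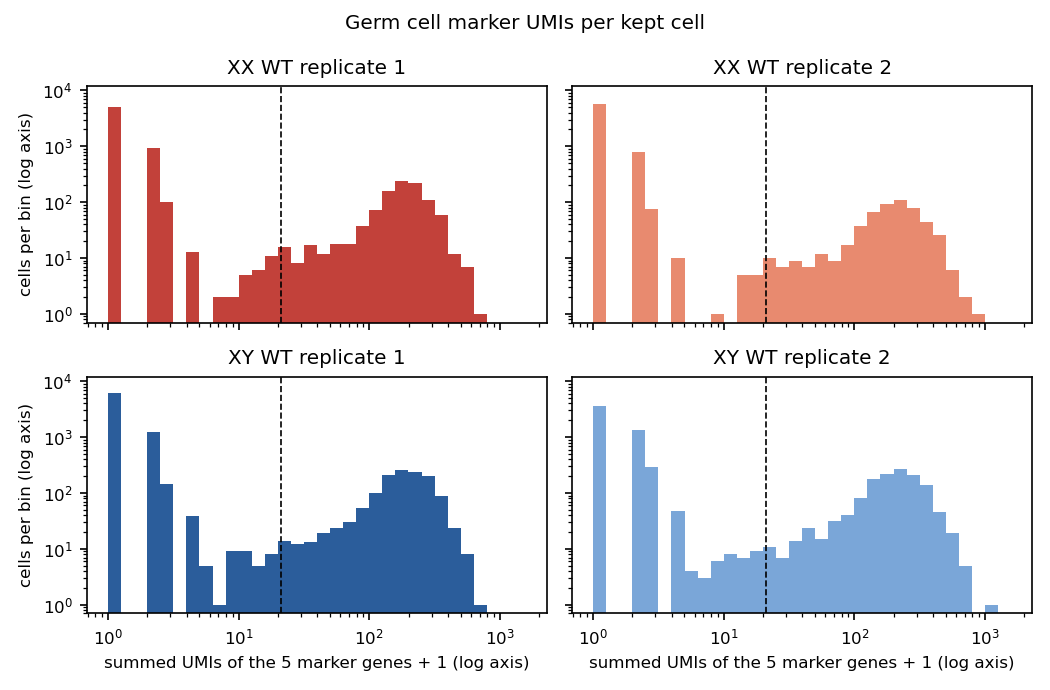
Number of kept WT cells per bin (vertical, log axis) against the summed UMIs of the 5 rule genes per cell with 1 added (horizontal, log axis), in 1 panel for each of the 4 libraries, with the minimum of 20 UMIs as a dashed line. Most cells sit at 0 or in a peak above 100 UMIs, where 3639 germ cells lie, and few lie beside the minimum.

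Because 2 cells can share a droplet, doublet scores were computed, and the highest 0.8% per 1000 barcodes of each library were treated as likely doublets. These were 8.78% and 13.3% of the germ cells in XX and 21.5% and 21.3% in XY, against 5.10 to 8.35% of the other cells. CPM is the UMIs of a gene in every 1000000 UMIs of the summed cells. The CPM of markers of other gonadal cell types were summed in germ cells and given as a percentage of their sum in the other cells of the same library. The 7 Sertoli markers stood at 16.5% and 16.7% in XY germ cells, and at 3.80% and 5.36% with the likely doublets removed. In XX the sum was 190% and 48.3% of a low level in other cells and was carried by Aard, which germ cells of both sexes contained (23.9 to 109 CPM over the 4 libraries). The pre-granulosa sum was 4.78% and 9.73% in XX and 15.9% and 16.2% in XY, and 1.20 to 4.29% in the libraries without the likely doublets. Endothelial cells of the same libraries, with at least 10 UMIs of 5 endothelial markers and likely doublets included, also held such RNA. Their Sertoli sums were 9.06 to 243 CPM, against 27.5 to 246 CPM in germ cells. Their pre-granulosa sums were 133 to 314 CPM, against 18 to 92.8, and their interstitial sums 76.4 to 188, against 21.1 to 129. The source of this RNA was not tested. Interstitial markers were at 5.46% and 7.55% in XX against 17% and 17.1% in XY (1.14 to 3.58% without likely doublets), and erythroid markers at 2.25% and 8.74% against 40.6% and 22.1% (1.70 to 6.22%). Endothelial markers stood at 57.7 to 67.0%. Among them Pecam1, an adhesion molecule that germ cells also carry, was at 55.9 to 77.4 CPM in germ cells. The mesonephric duct sum was 10.9% and 19.2% in XX and 99.2% and 72.5% in XY, and still 104% and 68.7% in XY without likely doublets. Most of it in germ cells of XY was Lhx1, at 44.2 and 53.0 CPM there against 0.37 to 0.42 in other XY cells. Immune markers summed to only 3.98 to 10.4 CPM in germ cells, or 23.2 to 114% of a low level in other cells (11.7 to 89.3% without likely doublets), with Ptprc at 0 to 0.03 CPM. Perivascular markers were at 31.8 to 55.4% (19.1 to 51.6%). In XY replicate 1, 116 germ cells (8.94%) with at least 10 UMIs of Sertoli markers held 82.0% of those UMIs, and 113 of them were likely doublets. In XY replicate 2, 143 cells (10.9%) held 82.6%, and 133 were likely doublets. Called differences between the sexes are given with and without the likely doublets.

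**Figure D2:**
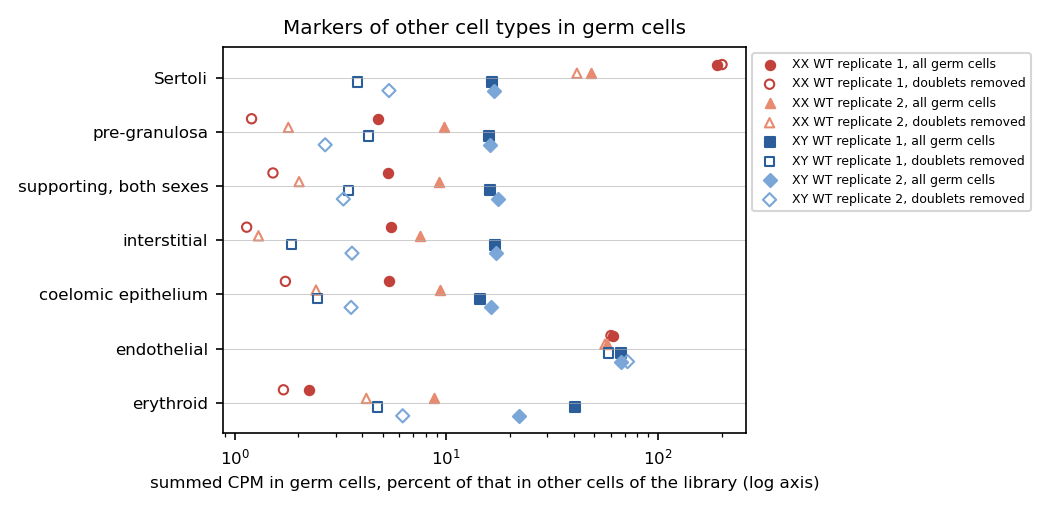
Summed marker CPM of other cell types in germ cells as a percentage of the sum in other cells of the same library (log axis), for the 4 WT libraries, with all germ cells (filled) and with likely doublets removed (open). The lists shown are Sertoli, pre-granulosa, supporting (both sexes), interstitial, coelomic epithelium, erythroid and endothelial. The mesonephric duct, immune and perivascular lists are not shown. For Sertoli markers the XY points move from 16.5% and 16.7% to 3.80% and 5.36%.

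The rule genes and the genes that came with them were as follows. These ratios describe cells picked by 5 of these genes and carry no test. Dppa5a, the leading rule gene, was at 3547 and 3354 CPM in XX germ cells and 5092 and 4581 in XY germ cells, against 5.39 to 19.3 CPM in other cells. Ddx4 was at 76.5 and 92.4 CPM in XX and 47.1 and 54.5 in XY, against 0.36 to 0.77. Among the genes that the rule did not use, Sox2, a pluripotency factor, was at 180 and 207 CPM in XX and 124 and 146 in XY germ cells, a log2 ratio of 6.70 between the mean CPM of germ cells and that of other cells (pseudocount 1 CPM, as for all ratios to other cells). Nanog was at 57.8 and 54.9 in XX and 45.6 and 48.9 in XY germ cells, against 0.455 to 0.589 CPM in other cells. The ranges of the 4 libraries did not meet for any of these 4 genes. For Dppa5a and Ddx4, which are rule genes, this follows from the choice of cells and is no evidence of what they are. Sox2 and Nanog, outside the rule, were also high in the cells.

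Genes with at least 100 CPM in germ cells of every library numbered 1292, and 23 of them were over 10-fold and 11 over 100-fold higher than in other cells, with 4 rule genes (Dppa5a, Dppa3, Pou5f1 and Dazl) in both counts. Beside the rule genes, the highest log2 ratios belonged to the X-linked homeobox genes Rhox9, Rhox6 and Rhox5, the X-linked Trap1a, and the autosomal Rbmxl2 (7.09), an RNA-binding protein of the germline, Rpl39l (6.90), a ribosomal protein variant, Sox2, the chromatin-associated Dppa4 (6.59), Tex19.1 (6.51), L1td1 (6.42) and Fkbp6 (5.59), a piRNA pathway factor. Further down the same ranking came Tdh, threonine dehydrogenase (4.97), the pluripotency factor Utf1 (4.55), the adhesion molecule Epcam (4.25), Ifitm3 (3.44), a membrane protein of early germ cells, and the cohesin acetyltransferase Esco2 (2.75). With likely doublets removed, 26 of the 30 highest remained among the 30 highest.

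**Figure D3:**
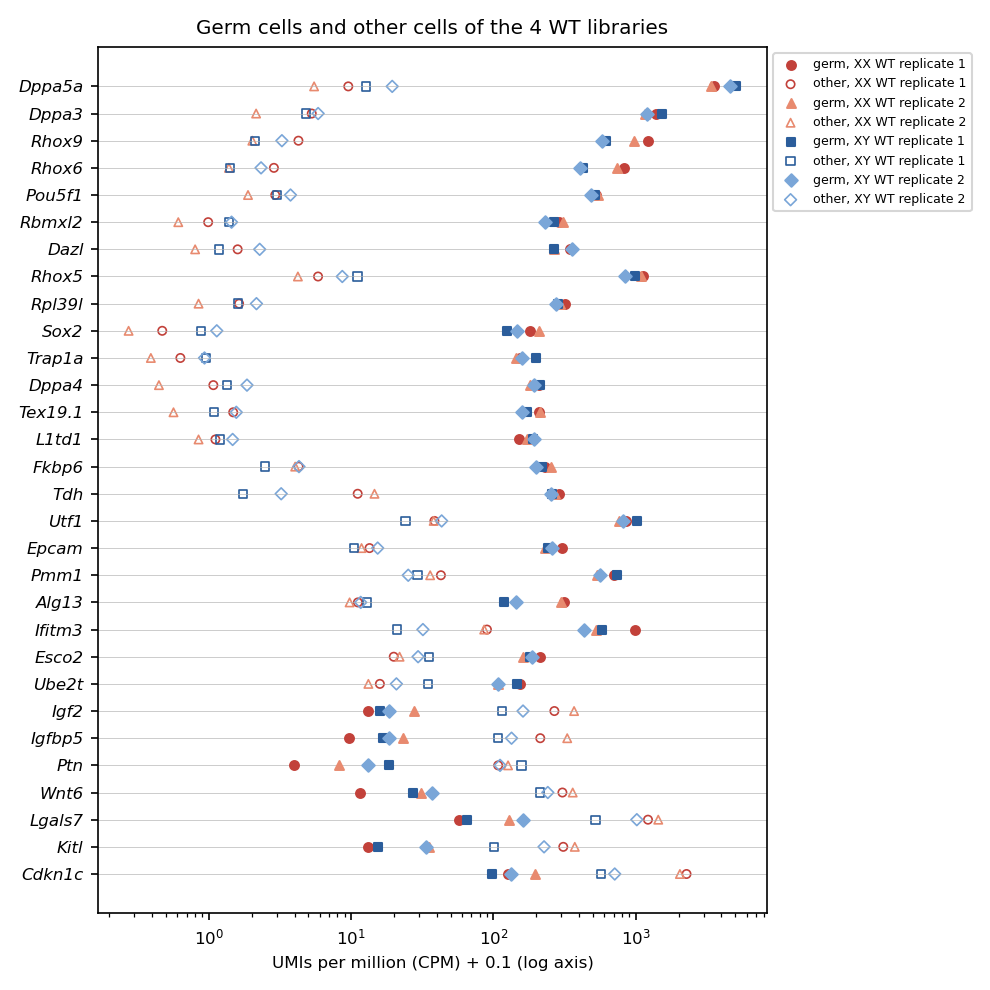
CPM (log axis, with a small constant added) in germ cells (filled) and other cells (open) for genes with the highest ratios, above, and the lowest ratios, below, with 1 symbol for each of the 4 WT libraries. Genes were chosen by these ratios, and Dppa5a, Dppa3, Pou5f1 and Dazl are rule genes. That filled and open symbols do not meet for any gene shown therefore follows from the choice. Sox2 was at 124 to 207 CPM in germ cells, and the sides are exchanged from Igf2 down. Dnd1, Gm45889, Gm49708 and C430049B03Rik, which rank among these genes, are not shown.

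Most of the listed germline and pluripotency genes were higher in these cells. Counts here leave out the rule genes. In the list of germline genes, 22 of 25 were higher in germ cells in all 4 libraries and 1 was lower (median log2 ratio 3.90). Of the 14791 genes compared over the whole transcriptome, 5318 (36%) were higher and 7113 (48.1%) lower in germ cells in all 4 libraries, with a median of -0.20. The pluripotency list had 19 of 21 higher (median 4.55) and the list of primordial germ cell identity 19 of 22 (3.76), including Tfap2c (44.5 to 79.6 against 0.243 to 0.461 CPM), Prdm1 (21.6 to 27.5 against 0.913 to 1.51) and the receptor Kit (59.2 to 76.1 against 2.86 to 4.29). The piRNA pathway, which silences transposons in the germline, had 14 of 18 higher and none lower in all 4 libraries. Its members Piwil2 (19 to 31.8 CPM), Mael (11.8 to 19.3), Asz1 (41.4 to 78.7) and Tdrd12 (56.5 to 86.7) were all under 1 CPM in other cells, whereas the later piRNA factor Piwil4 was at 0.49 to 0.76 CPM in germ cells.

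Meiotic genes of the list were mostly, but not all, higher in germ cells. There 25 of 36 (69.4%) were higher in all 4 libraries and 6 (16.7%) lower (median log2 ratio 1.37). Over all genes 36% were higher and 48.1% lower. Smc1b, a meiotic cohesin, was at 60.4 to 126 CPM against 0.87 to 1.06 in other cells. Syce2, of the synaptonemal complex, was at 286 to 398 against 56.8 to 87.5, and the cohesin Stag3 at 29.9 to 43.3 against 1.53 to 2.19. Stra8, which drives meiotic entry, was hardly detected. After each germ cell was thinned to 5000 UMIs, a Stra8 UMI was found in 1 of 983 and 2 of 523 XX cells and in 0 of 1276 and 1 of 1292 XY cells. The male gene Nanos2 had a UMI in none of the XX cells, which allows shares of up to 0.305% and 0.574% of cells with a UMI, in 0 of 1276 XY cells (up to 0.235%), and in 1 of 1292.

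Many cell cycle genes were higher in germ cells, while the DNA methylation list was split. Of the G2 and M phase genes 16 of 22 were higher in germ cells in all 4 libraries and none lower (median log2 ratio 1.04), and of the S phase genes 15 of 22 were higher and 3 lower (0.97). Cenpf, a mitotic kinetochore protein, was at 427 to 477 CPM against 126 to 179. The D cyclins did not move together, since Ccnd1 was at 7.10 to 12.2 CPM against 50 to 90.1 in other cells and Ccnd2 at 6.88 to 24.4 against 109 to 145, while Ccnd3 was at 174 to 223 against 142 to 157. Of the DNA methylation genes 7 of 20 were higher and 7 lower in all 4 libraries, with the share of higher genes (35%) near that of all genes (36%). The maintenance methyltransferase Dnmt1 was at 114 to 149 CPM against 60.1 to 82.6, but its partner Uhrf1, which recruits it to replicated DNA, was at 7.18 to 14.8 against 31.5 to 48.4. The de novo enzymes Dnmt3a and Dnmt3b were lower as well (log2 ratios -1.17 and -1.28), and Tet1, which oxidises methylated cytosine, was higher (2.67).

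Imprinted genes had 25 of 30 lower in germ cells in all 4 libraries and 3 higher (median log2 ratio -2.08), against 48.1% lower over all genes. Igf2, a growth factor, was at 13.1 to 27.6 CPM against 114 to 368, H19 at 29.6 to 68.6 against 102 to 559, and Gnas at 127 to 250 against 1378 to 1636. Snrpn, a splicing protein, went the other way with 57.1 to 75.9 against 16 to 22.4 CPM. The 10 lowest ratios among all genes of at least 100 CPM in other cells included Igf2 (-3.54), Igfbp5 (-3.47), Ptn (-3.41) and Wnt6 (-3.34). Lgals7 (-3.34), Kitl (-3.33) and Cdkn1c (-3.33) were also among them, of which Kitl is the somatic ligand of the receptor Kit on germ cells. The rest were Gm45889 (-3.52), Gm49708 (-3.38) and C430049B03Rik (-3.35). Removal of likely doublets lowered them further, to -5.16 for Igf2, -5.69 for Kitl and -5.24 for Cdkn1c, and only 5 of the 10 lowest genes stayed among the 10 lowest.

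Cells counted as germ cells also varied within 1 library. In cells thinned to 5000 UMIs, the variance over the mean was near 1 for the typical gene, with medians close to 1.05 over 2861 genes. The embryonic globins Hbb-y (187 to 678) and Hba-x (89.2 to 283) led the ranking, followed by Hba-a1, Kctd14, Tmsb4x, Ldhb, Cdkn1c and mitochondrial genes. The globins are erythroid markers, whose sums are given above. Cdkn1c was among the 10 genes lowest in germ cells against other cells. It was at 97.1 to 197 CPM in all germ cells and at 21.6 to 45.8 CPM without likely doublets. Of the 15 most variable genes, 10 stayed among the 15 highest without likely doublets. The source of the variation was not tested. Per cell, the summed S phase genes and the summed G2 and M phase genes ran opposite to each other in every library (Spearman's rho -0.428 to -0.277, described over cells of 1 library that share their depth after thinning).

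XX and XY germ cells were then compared, to ask which genes already differ between the sexes at E12 while neither Stra8 nor Nanos2 is found in more than a few cells. UMIs were summed per library, and 14277 autosomal genes outside the rule were tested with edgeR's quasi-likelihood test and Benjamini-Hochberg adjustment. At an adjusted p under 0.05, 109 genes (0.763%) differed, of which 23 (0.161%) were higher in XX and 86 (0.602%) higher in XY. The median log2 difference over all tested genes was 0.01. Unadjusted, 1718 genes had p under 0.05. For 6731 genes (47.1%) the libraries of the 2 sexes did not overlap, so the lack of overlap is common and is given below as a description only. Levels below are TMM-scaled CPM in XX replicates 1 and 2 and then XY replicates 1 and 2, and log2 differences are XX minus XY with their standard error. Levels of other cells were scaled in a joint fit of both populations, so they are not on quite the same scale as those of germ cells. The number of calls depended on single libraries, being 6 and 31 without XX replicates 1 and 2, and 24 and 36 without XY replicates 1 and 2. It was 756 when only the 4 WT libraries set the spread. The calls differed also between all germ cells and those left without likely doublets, where 57 were made. Of the 109, 96 could be tested there and 44 were called. A lost call need not mean a smaller difference, so log2 differences are given beside the calls of named genes.

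In XY germ cells, inhibitors of Nodal signalling were higher. Lefty2 was at 5.6 and 8.27 in XX and 127 and 104 in XY, a log2 difference of -4.06 ± 0.31 (adjusted p = 0.000702). Lefty1 was at 5.97 and 5.86 against 98.0 and 57.2 (-3.71 ± 0.43, adjusted p = 0.00366). Both encode secreted inhibitors of Nodal and lie side by side on chromosome 1 in the GRCm38 annotation (Lefty2 at 180893108 to 180899103, Lefty1 at 180935022 to 180938400). The groups did not overlap for either gene, as for 47.1% of all tested genes. With likely doublets removed their differences were -4.20 and -3.86, both still called.

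Most other members of the list of male germ cell and Nodal genes did not pass. Of 18 tested, 3 were higher in XY, Lefty1 and Lefty2 among them, against 0.602% of all genes, and none was higher in XX, and the median log2 difference of the list was -0.16 against 0.01 over all genes. Nodal itself was at 9.85 and 7.18 against 29.1 and 23.8 (-1.63 ± 0.38, adjusted p = 0.0913, and 0.062 without likely doublets). Its co-receptor Tdgf1 was at 2.46 and 10.0 against 19.4 and 12.2 (adjusted p = 0.538). The XX libraries lay below the XY libraries for both, but XX replicate 2 and XY replicate 2 were close for Tdgf1. Pmepa1, a feedback inhibitor of TGF-beta signalling named by the size of its change, was at 2.25 and 3.36 against 24.7 and 17.8 (-2.93 ± 0.27, adjusted p = 0.00135, and -2.81 without likely doublets), and it was also higher in XY than in XX other cells (22.6 and 20.2 against 90.1 and 63.5). Otx2 and Wnt3, chosen after their values were seen, were at 0.493 and 0.546 against 3.00 and 3.60 (adjusted p = 0.0389) and at 1.39 and 2.05 against 8.22 and 8.55 (adjusted p = 0.00366). Both are developmental regulators, and both were still called without likely doublets (adjusted p = 0.0339 and 0.00978).

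Per cell, UMIs of Lefty1 and Lefty2 were spread over much of the XY population. At 5000 UMIs a cell, 61.5% and 52.0% of XY germ cells had a UMI of Lefty1 or Lefty2, against 4.48% and 6.50% of XX germ cells and at most 0.95% of endothelial cells of the same libraries, which should lack them. Without thinning the shares were 92.8% and 86.2% in XY and 20.4% and 28.6% in XX. Lefty2 alone had a UMI in 43.9% and 40.2% of thinned XY and in 2.14% and 3.82% of thinned XX germ cells. Both genes were called in these same cells, so the shares describe that difference and add no test of it.

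In XX germ cells, 4 BMP and WNT response genes were called higher with all 4 WT libraries in the fit, and these calls depended on single libraries. Id1, a direct BMP target (chromosome 2, 152736251 to 152737410), was at 124 and 141 in XX and 25.6 and 30.9 in XY germ cells (2.22 ± 0.42, adjusted p = 0.041). Msx2, a homeobox gene induced by BMP, was at 60.4 and 38.0 against 11.4 and 16.9 (1.80 ± 0.30, adjusted p = 0.0271). Gata2 was at 47.3 and 30.6 against 3.34 and 7.64 (2.82 ± 0.46, adjusted p = 0.0263), and Zglp1, a GATA-like factor that acts in the oogenic programme, at 73.7 and 47.9 against 15.6 and 20 (1.77 ± 0.32, adjusted p = 0.0369). Without likely doublets Id1, Msx2 and Gata2 were still called (2.64, 1.66 and 2.67), and Zglp1 stood at 1.62 with an adjusted p of 0.0735. With 1 WT library left out at a time, the estimates ran from 2.09 to 2.37 for Id1 and 1.42 to 2.11 for Msx2. For Gata2 they ran from 2.35 to 3.54 and for Zglp1 from 1.43 to 2.05.

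These 4 were the called genes among 25 tested of the list, whose median was 0.36, against 0.161% of all genes called in XX, and none was called in XY. Id3 was at 468 and 449 against 249 and 204 (1.02 ± 0.22, adjusted p = 0.0683, and 0.062 without likely doublets), and the WNT target Axin2 at 16.1 and 15.1 against 5.68 and 7.27 (adjusted p = 0.136, and 0.221 without). Neither gene passed. Other cells contained Id1 at 91.1 and 106 in XX and 93.2 and 92.5 in XY, levels that overlapped. At 5000 UMIs a cell, 77.1% and 70.0% of XX and 23.7% and 28.3% of XY germ cells had a UMI of Id1, Msx2, Gata2 or Zglp1. These genes were taken because they were called higher in XX in the same cells, so the shares are a description only. Endothelial cells, in which Id1 and Gata2 are also known, had shares of 36.9 to 58.2%, so this share alone does not mark germ cells.

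Among called genes with at least 20 CPM in XX, the largest rise was that of Phlda2, an imprinted gene best known as a brake on placental growth. It was at 637 and 366 in XX and 35.1 and 47.0 in XY germ cells (3.61 ± 0.45, adjusted p = 0.00488), and at 1.83 to 4.87 in other cells. Slc22a18, an imprinted transporter gene, was at 24.6 and 15.5 against 2.08 and 2.50 (3.13 ± 0.37, adjusted p = 0.00366). In the GENCODE M21 annotation of GRCm38, Phlda2 lies on chromosome 7 at 143501545 to 143503150 (minus strand) and Slc22a18 at 143473736 to 143499334 (plus strand). These 2 were the called genes among 14 tested within 500000 bases of Phlda2, a window centred on a called gene and chosen after the values were seen, where 0.161% of all genes were called in XX. Cdkn1c, an imprinted cell cycle inhibitor in the same window, was at 127 and 187 against 95.4 and 124 (0.51 ± 0.54, adjusted p = 0.816), where the sexes nearly met. Both calls held without likely doublets (3.44 and 2.97). A Phlda2 UMI was found in 89.7% and 75.9% of thinned XX and 14.0% and 17.9% of thinned XY germ cells, and in 0.34 to 0.61% of endothelial cells. These shares describe the called difference in the same cells and add no test of it. Of the 30 imprinted genes of the list, all of which were tested, Phlda2 was the called one, where 0.763% of all genes were called in either direction, and the median was -0.02. The promoter windows of Phlda2 and Slc22a18, printed above, hold 26 and 2 CG pairs.

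Further genes higher in XX were Calcoco2, an autophagy receptor, at 140 and 60.4 against 6.92 and 14.9 (3.19 ± 0.58, adjusted p = 0.0369), and Nr6a1, the germ cell nuclear factor, at 41.2 and 43.3 against 10.2 and 15.1 (1.74 ± 0.25, adjusted p = 0.0121). Sct, the hormone secretin, was at 35.6 and 20.8 against 8.07 and 6.49 (adjusted p = 0.0444), and Ndufaf6, an assembly factor of respiratory complex I, at 74.1 and 67.1 against 25 and 20 (1.65 ± 0.33, adjusted p = 0.0495, and 1.61 with an adjusted p of 0.0571 without likely doublets). Lin28a, an RNA-binding protein of pluripotent cells, was at 42.3 and 42.3 against 17.6 and 19.1 (1.21 ± 0.18, adjusted p = 0.0153). It was the called gene among 21 tested of the pluripotency list, where 0.161% of all genes were called in XX. Without likely doublets all but Ndufaf6 of these were still called, at 3.00 for Calcoco2, 1.52 for Nr6a1, 2.02 for Sct and 1.04 for Lin28a. All 23 genes called in XX had a higher level in XX germ cells than in other XX cells, and 12 of them were called without likely doublets. A lost call need not mean a much smaller difference. The named genes that lost it, Zglp1 and Ndufaf6, went from 1.77 to 1.62 and from 1.65 to 1.61.

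**Figure D4:**
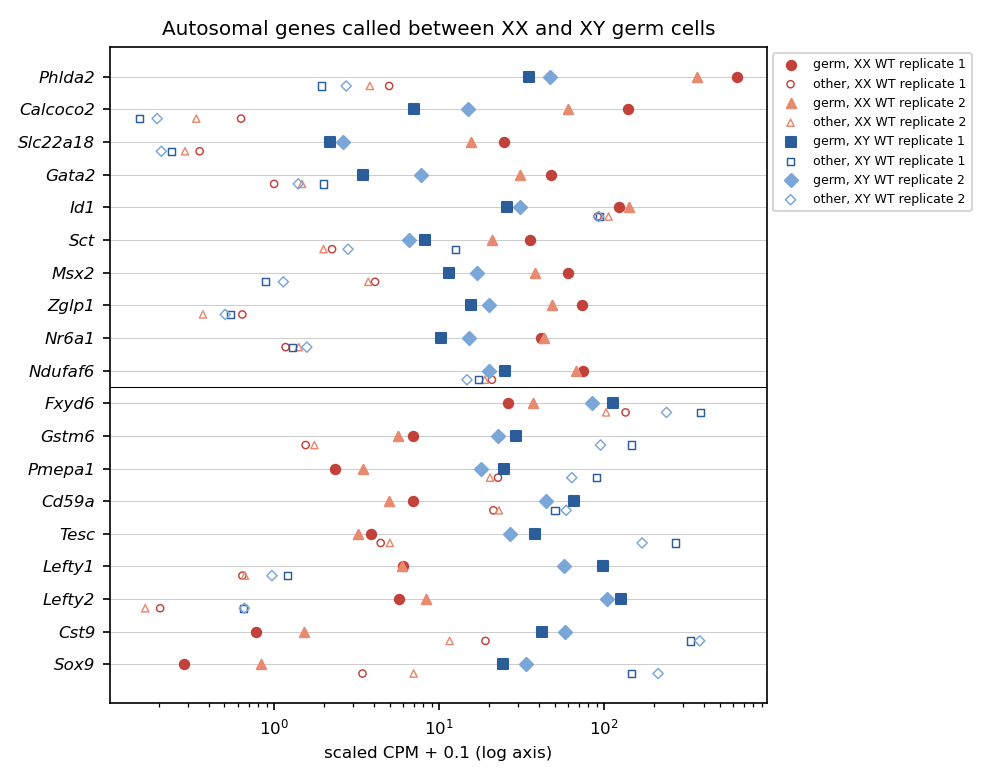
TMM-scaled CPM (log axis, with a small constant added) of the genes with the largest called changes between XX and XY germ cells, with a large filled symbol for the germ cells and a small open symbol for the other cells of each WT library. Filled symbols are scaled in a fit of germ cells alone and open symbols in a joint fit of both populations. Genes were chosen with no overlap between the germ cells of the 2 sexes, with Phlda2 at 637 and 366 in XX against 35.1 and 47.0 in XY, and Lefty2 at 5.6 and 8.27 against 127 and 104.

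Markers of Sertoli cells, the supporting cells of the testis, and other genes with high levels in other XY cells were also called in XY germ cells. Sox9, a transcription factor that drives Sertoli cell differentiation, was at 0.185 and 0.727 in XX and 24.4 and 33.4 in XY germ cells (-6.07 ± 1.11, adjusted p = 0.0371), and at 146 and 212 in other XY cells. Without likely doublets the difference was -4.75 and the adjusted p was 0.062. Tesc was at 3.79 and 3.14 against 38.2 and 26.8 (-3.22 ± 0.27, adjusted p = 0.000794) and at 270 and 170 in other XY cells, and without likely doublets it stood at -1.05 (adjusted p = 0.16). Gstm6 went from -2.06 (adjusted p = 0.00285) to -0.76 (adjusted p = 0.154), and Fxyd6 from -1.66 (adjusted p = 0.041) to -1.44 (adjusted p = 0.0571). Cst9, a cystatin on the Sertoli list, stayed called (-5.61 with all cells and -6.04 without, adjusted p = 0.00344 and 0.019). Amh, on the same list, also stayed called (-9.41 and -5.95, adjusted p = 0.00366 and 0.0324). Dhh did not (-6.05 and -3.19, adjusted p = 0.00344 and 0.0875). Of the 7 Sertoli markers tested, 4 were called in XY germ cells, where 0.602% of all genes were, and the list median was -5.87, or -4.75 without likely doublets. Endothelial cells of the WT libraries, likely doublets included, held these 7 markers at sums of 9.06 to 243 CPM, so such RNA was not particular to germ cells.

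The 86 genes called in XY were split, after their values had been seen, by whether XY germ cells held more or less of them than other XY cells. For 63 the level in germ cells was below that in other cells, with a median of 17.9% of it, and 59 of these were also called higher in XY in the other cells. Of the 63, 50 could be tested without likely doublets and 9 of them were called. The rest fell below the filter on low counts there. Lost calls came with changes of varied size. Fxyd6 moved little, from -1.66 to -1.44. Other named genes moved by more, Tesc from -3.22 to -1.05, Dhh from -6.05 to -3.19, Sox9 from -6.07 to -4.75 and Gstm6 from -2.06 to -0.76. The count of lost calls alone does not say how far the differences moved. For the other 23, which include Lefty1 and Lefty2, the mean germ cell level was above that in other cells, and all 23 were called without likely doublets. Cd59a was among these 23 by a small margin of the mean. Cd59a, which protects cells from complement, was at 6.87 and 4.86 against 65.5 and 44.4 (-3.22 ± 0.59, adjusted p = 0.0373, and -3.57 without likely doublets), and at 50.2 and 58.7 in other XY cells. Scaled together with other cells, XY germ cells held 72.9 and 49.6, above other cells in replicate 1 and below them in replicate 2. Smoc2, chosen after its values were seen, turned from -2.42 to 0.47 (adjusted p = 0.929) without likely doublets.

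**Figure D5:**
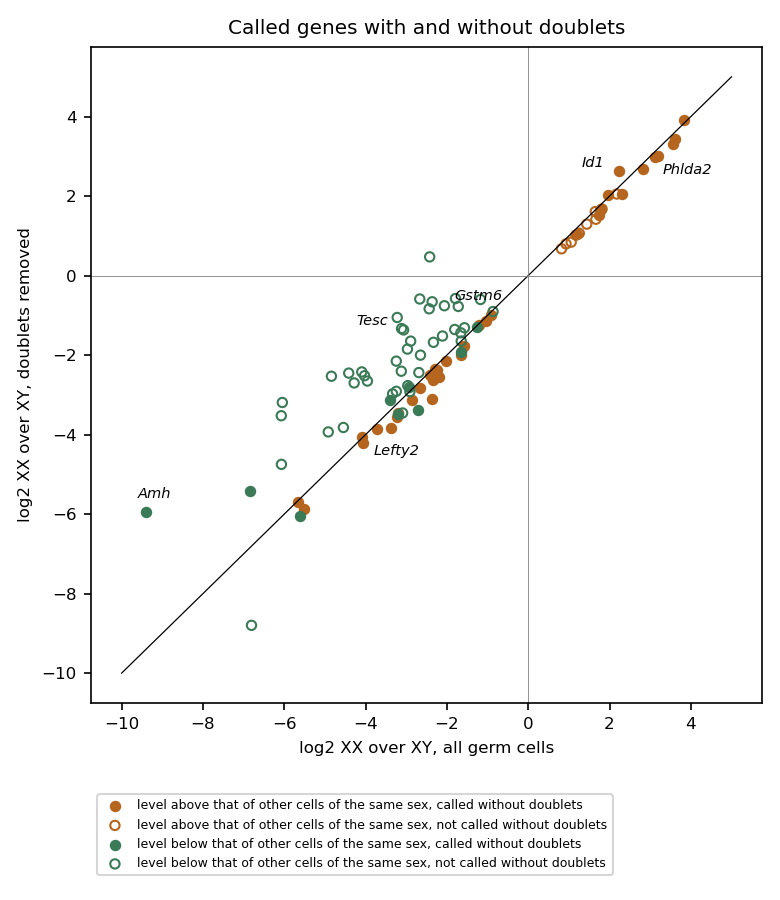
Log2 difference between XX and XY in germ cells with likely doublets removed (vertical) against that in all germ cells (horizontal), 1 point for each called gene that could be tested in both (96 of 109), with a line of equal values. Colour tells whether the germ cell level is above or below that of other cells of the same sex, and filled points are called in both. Lefty2 and Phlda2 lie near the line, while Tesc moves from -3.22 to -1.05 and Gstm6 from -2.06 to -0.76.

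The sexes of the other cells differed for more genes. There 2044 of 17651 autosomal genes (11.6%) were called by the same test, and the difference between germ cells and other cells in their response to sex, tested with the library as a term, was called for 574 of 17998 genes (3.19%). Of the 109 genes called in germ cells, 31 were among them. The 109 were called on the same germ cell sums, which are part of this test, so that count is a description only. Phlda2 had a sex difference larger by 2.56 ± 0.34 on the log2 scale in germ cells than in other cells (adjusted p = 0.00413), Id1 one larger by 2.09 ± 0.32 (adjusted p = 0.00828) and Nr6a1 one larger by 1.86 ± 0.30 (adjusted p = 0.0104). For Lefty1 the germ cell value was lower, that is, further towards XY, by -2.91 ± 0.45 (adjusted p = 0.00868). For Lefty2 (adjusted p = 0.56), Calcoco2 (0.777), Gata2 (0.171) and Msx2 (0.402) no such difference was called. Lefty2 and Calcoco2 were at most 0.56 and 0.53 in other cells, while Msx2 differed between the sexes there too (3.99 and 3.62 against 0.786 and 1.04).

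Several gene lists held no gene called between the sexes. None of the 24 tested germline genes, 16 piRNA genes, 17 DNA methylation genes, 24 receptor and adhesion genes, 21 S phase genes, 22 G2 and M phase genes, 17 cell cycle inhibitors and D cyclins, 14 retinoic acid response genes and 26 glycolysis and respiration genes was called, with list medians from -0.11 to 0.66. Over all genes the share called was 0.763%, so lists of these sizes would hold few calls or none in any case. Their lack of calls is no result about these genes. The highest median was that of the retinoic acid list (0.66, and 1.00 without likely doublets). Nanog was at 57.7 and 52.0 in XX and 44.7 and 45.8 in XY (0.28 ± 0.17, adjusted p = 0.594), and Sox2 at 179 and 196 against 121 and 137 (0.54 ± 0.17, adjusted p = 0.197), neither of which passed. Of 32 tested meiotic genes, 24 had a higher estimate in XX, as had 7285 of all 14277 genes, 1 was called in each direction, and the median was 0.27. Zglp1 was the called one in XX and Ugt8a, a lipid enzyme, the one in XY (-2.20, and -2.56 without likely doublets, both called). Smc1b was at 126 and 95.4 against 59.4 and 73.7 (0.73 ± 0.30, adjusted p = 0.347), Sycp1 at 16.3 and 13.9 against 7.38 and 6.96 (adjusted p = 0.548) and Sycp3 at 24 and 26.9 against 29.9 and 23.7 (adjusted p = 0.971), the latter with overlapping libraries. The retinoic acid list held Cdx2, at 12.7 and 7.36 against 1.27 and 1.44 (adjusted p = 0.0649), and Cyp26b1, the enzyme that breaks retinoic acid down, at 0.493 and 0.682 against 6.8 and 8.22 (adjusted p = 0.0621, and 0.252 without likely doublets).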

How the data were processed

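Gonads of E12 mouse embryos were profiled by droplet-based 3′ single-cell RNA sequencing in 12 libraries of 6 groups, of which the 4 WT libraries are described here. The authors deposited UMI counts per gene and barcode, without normalization. The submitters' processing notes name Cell Ranger 6.0 and the build mm10. The paper's methods name version v3 of the reagent kit and the labels v2. WT libraries held 116415082 to 133657163 UMIs.

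Barcodes with under 1000 genes or over 10% mitochondrial UMIs were left out. Doublets were scored with Scrublet in scanpy 1.11.5. Its automatic threshold marked 0 barcodes in some libraries, so the highest scores, 0.8% per 1000 barcodes, were taken instead. Counts were summed per library over germ cells, normalized with TMM, filtered with filterByExpr and tested with edgeR 4.0.16 (quasi-likelihood, Benjamini-Hochberg adjustment over autosomal genes, 6 groups sharing 1 estimate of spread, R 4.3.3). The 5 rule genes were not tested. The sex difference in germ cells was set against that in other cells in 1 fit of both sums of each library, with the library as a term. Levels against other cells carried no test. Shares of cells with a UMI used cells thinned to 5000 UMIs, and endothelial cells were those with at least 10 UMIs of 5 endothelial markers. Alternatives were DESeq2 1.42.0, RLE factors, no filter, other marker minimums, other thinning depths, the 4 WT libraries alone, a replicate block, removal of likely doublets or of each library, and the germ cells with the lower share of other cell types' markers. Other steps ran in Python 3.11.15 with pandas 2.3.3, scipy 1.17.1 and numpy 2.4.6.

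The members, the gene lists and the tests were chosen with earlier results of these data known. Genes were named from these lists; as the 10 largest rises and 10 largest falls between the sexes among called, non-overlapping autosomal genes with at least 20 CPM in the higher sex; as the 30 highest and 10 lowest ratios to other cells among genes with at least 100 CPM; and as the 15 most variable genes. Genes outside the rule are marked as chosen after their values were seen. On simulated counts for 14865 genes, the comparison of XX with XY WT germ cells found 1.19% of the genes changed 1.5-fold, 18.2% of those changed 2-fold and 66.2% of those changed 4-fold, and unchanged genes made up 6.13% of its calls. The marker sums of other cell types without likely doublets were added after seeing the data. A few items of the lists are not reported by name.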

Additional observations from a re-analysis of the deposited data

Results flagged for a closer look

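Of 27 genes named for a sex difference in germ cells, 13 had a difference from that in the other cells by the test of the difference itself (edgeR quasi-likelihood with the library as a term, 2 libraries of each sex). Over all genes, 574 of 17998 (3.19%) were called by this test. The 27 were named for their difference in these same germ cells, which is part of the tested value, so their count is a description only. Values are the log2 difference, XX minus XY, in germ cells less that in other cells. Those above 0 were Phlda2 (2.56, adjusted p = 0.00413), Slc22a18 (2.22, 0.0192), Id1 (2.09, 0.00828), Nr6a1 (1.86, 0.0104), Zglp1 (1.84, 0.0366), Ndufaf6 (1.28, 0.0392) and Sct (3.41, 0.0132), all higher in XX germ cells. In other cells Sct was at 2.14 and 1.89 scaled CPM in XX and at 12.5 and 2.70 in XY (adjusted p = 0.0592). For Tesc (2.28, 0.00163), Gstm6 (4.13, 0.0119) and Smoc2 (2.46, 0.0418) the sign is also positive, because with all germ cells included these genes were higher in XY in both populations and by more in the other cells, where Gstm6 was at 1.45 and 1.65 in XX and 146 and 94.9 in XY. Without likely doublets the differences in germ cells were -1.05 for Tesc (adjusted p = 0.16), -0.76 for Gstm6 (0.154) and 0.47 for Smoc2 (0.929), none of them called.

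Those below 0 were Pmaip1 (-3.03, adjusted p = 0.0255), Lefty1 (-2.91, 0.00868) and Pmepa1 (-1.17, 0.0448), all higher in XY germ cells. Pmaip1, a gene of the cell death list that acts in mitochondrial apoptosis, was at 0.4 and 0.318 scaled CPM in XX germ cells and 4.15 and 3.42 in XY germ cells (log2 difference -3.36, and -3.84 without likely doublets), and at 0.311 to 0.489 in the other cells.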

How the results depend on the processing

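Calls between XX and XY germ cells were 109, and each library mattered, since 6 to 36 were made when 1 WT library was left out. They were 756 with the 4 WT libraries alone, 255 with DESeq2, 992 without a filter on low counts, 57 with likely doublets removed, 64 in cells thinned to 5000 UMIs and 70 in the cells with the lower share of other cell types' markers, of which 44, 41 and 44 were among the 109 for the last 3. Of the 109, 96 could be tested without likely doublets and 74 in the cells with the lower share of other cell types' markers. RLE factors gave 104 calls and marker minimums of 10 and 40 UMIs gave 119 and 115. A replicate block gave 83 calls, 80 of them shared. Named genes that lost the call in that fit were Sct (adjusted p = 0.066), Ndufaf6 (0.075), Cd59a (0.0589), Fxyd6 (0.0564) and Ugt8a (0.0719). The labels share replicate numbers between the sexes, but deviations of same-numbered libraries correlated at only 0.0748 over 14277 genes, so the block was kept as an alternative. The difference from other cells was called for 574 genes, for 2551 with the 4 WT libraries alone, for 44 to 188 when 1 WT library was left out (57 and 188 without XX replicates 1 and 2, 44 and 188 without XY replicates 1 and 2), and for 776 with likely doublets removed. The cause of these changes was not tested. For 27 genes, the called ones of the rule and those added, 280 of 376 refits kept the call, 94 lost it with the same direction, 70 of them when a library was left out, and 2 reversed. Both were of Smoc2, which went from -2.42 to 0.47 without likely doublets and to 1.60 in the cells with the lower share of other cell types' markers. Lefty2 and Pmepa1 kept it in all 14. Of the 10 genes lowest in germ cells, 5 stayed among the 10 lowest without likely doublets, and of the 15 most variable genes 10 did. With 2 libraries a sex, 2-fold changes were mostly not recovered in simulation, so an uncalled gene may still differ.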

Other observations

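X-linked genes were outside the tests between the sexes, and are described here. UMIs of X-linked genes made up 3.43% and 3.50% of the UMIs of XX germ cells and 2.52% and 2.51% of those of XY germ cells. With likely doublets removed they were 3.44% and 3.51% in XX and 2.42% and 2.40% in XY. In other cells the shares were 3.24% and 3.37% in XX and 3.21% and 3.23% in XY. Over all 551 X-linked genes that passed the filter on low counts in germ cells, the median log2 difference, XX minus XY, was 0.19, and 341 were higher in XX. Among genes with a mean of at least 20 CPM, it was 0.49 over 157 X-linked genes in germ cells, 137 of them higher in XX, and 0.04 over 4981 autosomal genes. In other cells it was -0.01 over 193 X-linked genes, 93 of them higher in XX, and -0.07 over 5396 autosomal genes.

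Xist, the RNA that coats the inactive X chromosome, was at 35.2 and 59.0 CPM in XX germ cells against 632 and 725 CPM in the other cells of the same libraries. With likely doublets removed it was at 10.6 and 9.20 CPM in XX germ cells, against 630 and 720.4 CPM in other XX cells. It was at 2.64 and 1.23 CPM in XY germ cells and at 0.085 and 0.154 CPM in other XY cells. With likely doublets removed the XY values were 3.18 and 1.20 CPM in germ cells and 0.098 and 0.143 CPM in other cells. The summed level of 4 Y-linked genes was 0 CPM in the germ cells of both XX libraries and 135 and 136 CPM in those of XY, as the labels say.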
